A study of Homo sapiens with 3 samples.

Results

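Genes of the NF-κB system were examined in MDA-MB-231, an established mesenchymal-like line of human breast cancer cells generally counted among those that lack oestrogen receptor alpha (ERα). The 10 genes were NFKBIA, NFKBIE, NFKBIZ, TNFAIP3, NFKB1, NFKB2, RELB, REL, ICAM1 and TRAF1. They were chosen by name, with earlier results of these data known. These 10 were among the 19775 genes measured by probe sets paired with exactly 1 gene symbol. They were read by 22 of 41097 such probe sets, the groups of short oligonucleotides that measure a transcript on an Affymetrix HG-U133 Plus 2 array. The cells spent 4 h in RPMI medium whose 10% serum had been stripped of steroids with charcoal and were then treated for 3 h with 0.1% ethanol as vehicle, with 1 µM estradiol, or with 1 µM ERα17p, a peptide derived from ERα. There was 1 array per group. No difference therefore has a replicate check, no test was possible, and every value describes these 3 arrays only. The sources used here do not name the peptide's solvent.

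NF-κB is a family of dimeric transcription factors built from RELA, RELB, REL and the products of NFKB1 and NFKB2. In resting cells the dimers are held in the cytoplasm by IκB proteins, and signals from cytokine and Toll-like receptors release them by way of the IKK kinases, which mark IκB for destruction. The factors then induce their own inhibitors, among them NFKBIA and TNFAIP3, so that the response limits itself, as well as adhesion molecules such as ICAM1. MDA-MB-231 cells are known for NF-κB activity in the absence of added stimuli.

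Promoters of these genes are shown because several are known to be bound by the factors that the same set encodes or restrains. Promoter windows for 8 of the 10 genes were found in a RefSeq table (GRCh38.p14), which gave 14 windows because some genes have several start sites. Those of NFKBIE and RELB were not found there. The 250 bases before each start site were searched on both strands for the κB consensus and, as a choice made after the windows were read, for the overlapping palindrome GGAANTTCC. The consensus lay in windows of 6 of the 8 genes (NFKBIA, NFKBIZ, TNFAIP3, NFKB1, NFKB2 and REL), against 6.28% of the 27305 genes of the table (8 of 14 windows, against 5.21% of all windows). The palindrome lay in windows of 5 of the 8 (NFKBIA, NFKBIZ, NFKB1, REL and ICAM1) and of 0.996% of all genes. Since the palindrome was chosen after these windows were read, its 2 shares do not measure an excess. Those of the consensus do not either, because several of these genes were already known to be bound by these factors. Capitals mark the matches below, and ICAM1 and NFKBIA are given over all 250 bases because they carry the same letters yet lay on opposite sides of vehicle in the array data.
ICAM1 (chr19:10270870-10271119, plus strand): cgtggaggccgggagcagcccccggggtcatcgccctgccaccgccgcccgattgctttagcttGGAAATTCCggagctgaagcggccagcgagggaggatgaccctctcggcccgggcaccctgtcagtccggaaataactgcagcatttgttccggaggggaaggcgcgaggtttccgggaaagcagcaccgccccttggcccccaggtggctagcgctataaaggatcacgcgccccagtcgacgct
NFKBIA (chr14:35404750-35404999, minus strand): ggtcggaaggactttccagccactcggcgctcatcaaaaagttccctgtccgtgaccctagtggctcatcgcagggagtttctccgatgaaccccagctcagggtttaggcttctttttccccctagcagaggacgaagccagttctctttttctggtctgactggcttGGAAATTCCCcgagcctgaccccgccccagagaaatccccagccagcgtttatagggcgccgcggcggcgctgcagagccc
NFKBIZ (chr3:101827747-101827796, plus strand): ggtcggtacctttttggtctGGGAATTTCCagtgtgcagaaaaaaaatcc
TNFAIP3 (chr6:137867172-137867233, plus strand): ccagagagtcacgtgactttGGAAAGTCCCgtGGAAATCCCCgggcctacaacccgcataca
NFKB1 (chr4:102501290-102501339, plus strand): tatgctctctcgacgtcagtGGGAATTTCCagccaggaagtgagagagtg
NFKB2 (chr10:102394451-102394529, plus strand): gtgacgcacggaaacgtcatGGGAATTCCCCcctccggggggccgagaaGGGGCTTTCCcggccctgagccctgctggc
REL (chr2:60881507-60881557, plus strand): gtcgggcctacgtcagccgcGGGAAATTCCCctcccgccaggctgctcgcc
The match began 186 bases before the start site in ICAM1 and 81 bases before it in NFKBIA. TNFAIP3 held 2 consensus matches side by side. Another start site of NFKBIZ and of NFKB2 also had consensus matches, not shown. Neither motif was found in the 3 windows of TRAF1. A match is a run of letters and was not tested for binding.

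The deposited value of each probe set is relative to a reference level of its own that no source describes, so the values give differences between arrays and no expression level. Values of different genes therefore cannot be ranked as levels, a difference may come from a barely detected gene, and whether the line's defining markers are present could not be read. Of the marker genes measured, 0 of 5 for mesenchymal-like lines, 1 of 7 for luminal epithelium and 0 of 5 for fibroblasts and endothelium differed from vehicle by at least 1.5-fold on either treated array, and 1 of 4 for blood cells did on the estradiol array. Of all genes, 10.6% were higher and 8.42% lower by this limit for estradiol, and 9.56% and 8.82% for ERα17p. With so few markers, the counts cannot be told from these shares. The vehicle array also stood apart in added control RNAs: the labelling spikes were 2.03 and 2.04 higher (log2, medians of 27 probe sets) on the estradiol and ERα17p arrays, and the hybridisation spikes were at -0.74 and -0.93 (18 probe sets). Over all probe sets the vehicle array had an SD of 0.494, the estradiol array 0.260 and the ERα17p array 0.241. The part of these array differences in the values below was not tested. In bulk RNA, fewer cells expressing a gene and less RNA per cell cannot be told apart.

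The 4 genes grouped here as inhibitors were NFKBIA, NFKBIE, NFKBIZ and TNFAIP3. Relative to vehicle, these 4 and NFKB2 lay lower on both treated arrays, and NFKB1, RELB, REL, ICAM1 and TRAF1 lay higher on both. A difference of at least 1.5-fold, or 0.58 on the log2 scale, in the median of a gene's probe sets was counted. For estradiol 3 of the 10 genes were higher by this measure (ICAM1, NFKB1 and RELB), against 10.6% of all genes, and 3 were lower (NFKBIZ, TNFAIP3 and NFKB2), against 8.42%. For ERα17p 2 were higher (ICAM1 and NFKB1), against 9.56%, and 2 were lower (NFKBIZ and TNFAIP3), against 8.82%. Both comparisons use the same vehicle array. Since the genes were chosen with earlier results of these data known, these counts do not measure an excess over all genes. The median difference of the 10 genes was 0.012 for estradiol and -0.12 for ERα17p, beside 0.0022 and 0.0021 over all genes, with 5 of the 10 genes on either side of 0. The median size of the difference, without its sign, was 0.72 and 0.48, beside 0.25 over all genes in both comparisons. At a stricter limit of 2-fold, ICAM1 was higher (3.94% of all genes) and NFKBIZ and TNFAIP3 lower (2.18%) for estradiol. For ERα17p ICAM1 was higher (3.34%) and NFKBIZ lower (2.48%). TNFAIP3 lay on the 2-fold limit in both comparisons, at -1.001 for estradiol and -0.998 for ERα17p.

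**Figure D1:**
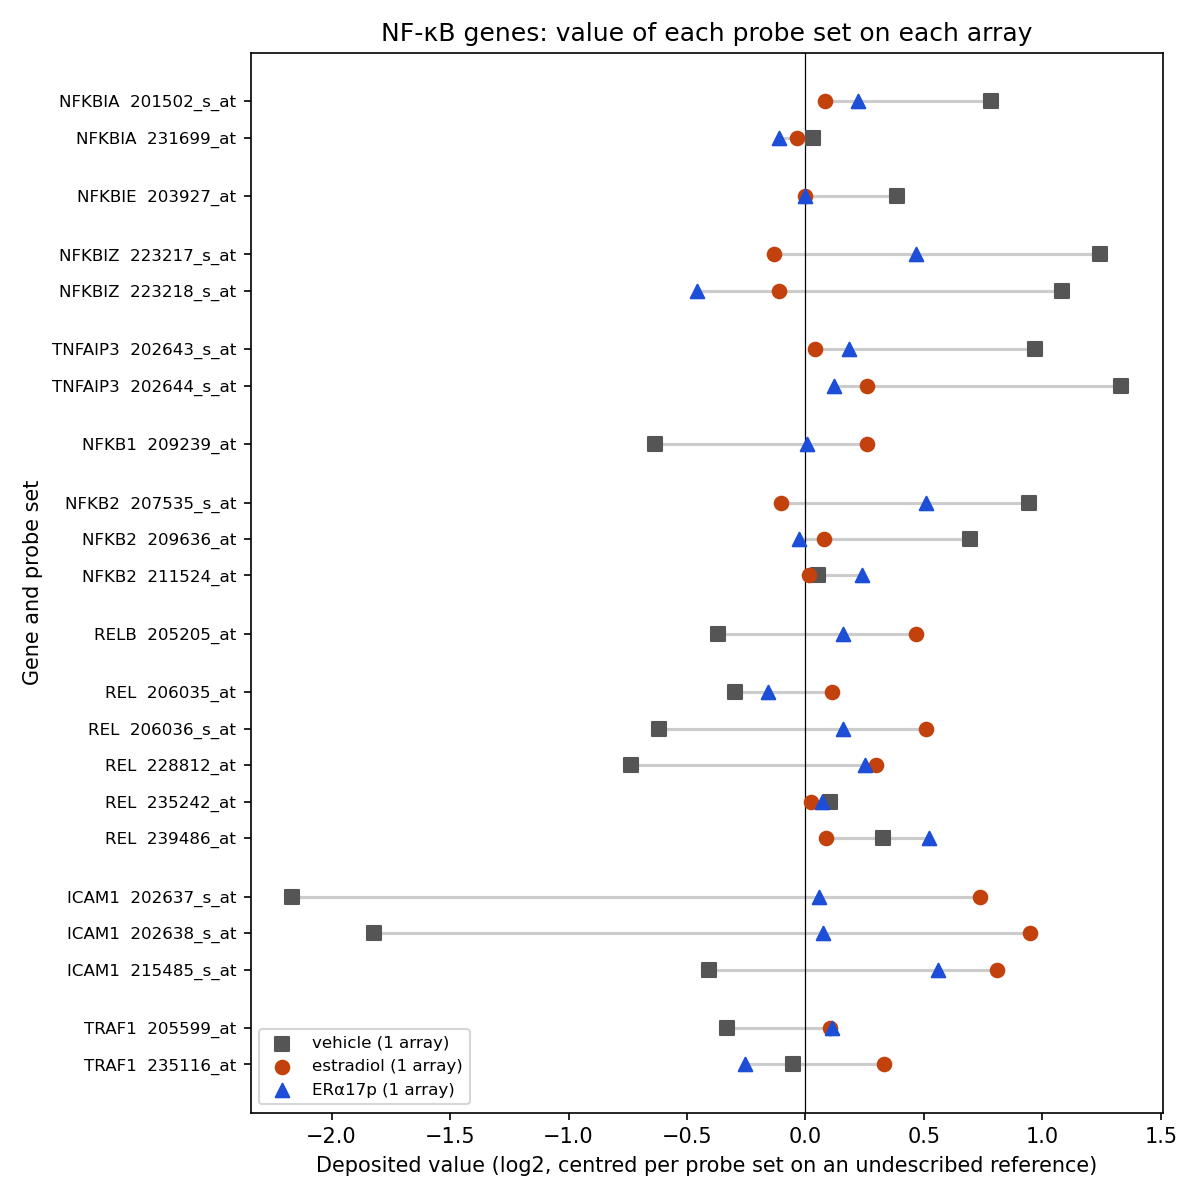
Deposited values (log2, each relative to its probe set's own undescribed reference level) of the 22 probe sets of the 10 genes, with squares for the vehicle array, circles for estradiol and triangles for ERα17p (1 array each). The vehicle value lay outside both treated values in 19 of the 22 probe sets, highest in 10 and lowest in 9. Over all probe sets of the arrays it did so in 76.6%.

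The vehicle array held the extreme value in 19 of these 22 probe sets, against 76.6% of all probe sets. Its gene median lay outside those of both treated arrays in 10 of 10 genes, against 78.2% of all genes. On the vehicle array 5 of the 10 genes were at least 1.5-fold from the reference level (NFKBIZ, TNFAIP3, NFKB2, NFKB1 and ICAM1), against 10.9% of all genes. On the estradiol array ICAM1 alone of the 10 was, against 1.8% of all genes, and on the ERα17p array 0 of the 10 were, against 1.13%.

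The inhibitors lay below vehicle on both treated arrays, NFKBIZ and TNFAIP3 the furthest. NFKBIZ, grouped with the inhibitors as an IκB, encodes IκBζ, an atypical nuclear IκB that modulates transcription with NF-κB dimers and is not only an inhibitor. Its probe set 223217_s_at was at 1.24 on the vehicle array, -0.13 with estradiol and 0.47 with ERα17p, and 223218_s_at was at 1.08, -0.11 and -0.46. Vehicle was the highest array in both probe sets, while the order of the treated arrays differed between them. The gene difference from vehicle was -1.29 for estradiol (2.44-fold lower) and -1.16 for ERα17p (2.23-fold lower), with 173 and 285 of the 19775 genes at least as low.

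TNFAIP3 encodes a ubiquitin-editing enzyme that shuts off signalling to the IKK kinases. From vehicle to estradiol to ERα17p, its probe set 202643_s_at was at 0.97, 0.038 and 0.18, and 202644_s_at at 1.33, 0.26 and 0.12. Both probe sets put vehicle highest by a wide gap and the treated arrays close together. The gene was 2.00-fold lower for both treatments, with 431 and 493 genes at least as low. After quantile normalisation its log2 difference was -0.57 for each, just inside 1.5-fold.

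NFKBIA and NFKBIE encode IκBα and IκBε, the cytoplasmic inhibitors that retain NF-κB dimers. NFKBIA probe set 201502_s_at was at 0.78 on the vehicle array, 0.083 with estradiol and 0.22 with ERα17p, whereas 231699_at was at 0.032, -0.036 and -0.11. The first of these differed by 1.63-fold between vehicle and estradiol and the second by 1.05-fold, so the gene median of -0.38 for estradiol and -0.35 for ERα17p averages unlike probe sets. NFKBIE, with 1 probe set, was at 0.39, 0 and -0.00038, a difference of -0.39 for both treatments (1.31-fold lower). Neither gene reached 1.5-fold in either comparison.

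The subunit genes divided, with NFKB1, RELB and REL above vehicle and NFKB2 below. NFKB1, which encodes the precursor of a DNA-binding subunit that commonly pairs with RELA, was at -0.64 on the vehicle array, 0.26 with estradiol and 0.0048 with ERα17p in its 1 probe set. It was 0.90 higher for estradiol (1.86-fold) and 0.64 higher for ERα17p (1.56-fold), and the latter was 0.47 after quantile normalisation, inside 1.5-fold. RELB, the partner of the NFKB2 product in the non-canonical pathway, was at -0.37, 0.46 and 0.16. Its difference was 0.84 for estradiol (1.78-fold) and 0.53 for ERα17p (1.44-fold), the second short of 1.5-fold. In both genes estradiol was the highest array and vehicle the lowest.

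REL, which encodes the subunit c-Rel, had 5 probe sets that did not move alike. From vehicle to estradiol to ERα17p, 206036_s_at was at -0.62, 0.51 and 0.16, 228812_at at -0.74, 0.30 and 0.25, and 206035_at at -0.30, 0.11 and -0.16. In these 3 the vehicle array was the lowest. The other two gave 0.10, 0.023 and 0.071 (235242_at) and 0.33, 0.086 and 0.52 (239486_at), with estradiol the lowest. The gene difference of 0.41 for estradiol and 0.20 for ERα17p therefore spans probe sets from -0.24 to 1.13 and from -0.032 to 0.99.

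NFKB2, whose precursor also acts as an inhibitor of NF-κB dimers, sided with the inhibitors in its direction. Its probe set 207535_s_at was at 0.94 on the vehicle array, -0.10 with estradiol and 0.51 with ERα17p, 209636_at was at 0.69, 0.080 and -0.026, and 211524_at was at 0.051, 0.015 and 0.24. Vehicle was the highest array in the first and second of these but not in the third. The gene difference was -0.61 for estradiol (1.53-fold lower) and -0.44 for ERα17p. For estradiol the difference was inside 1.5-fold with the mean of probe sets (-0.57), after quantile normalisation (-0.39), with the arrays scaled to equal SD (-0.36) and without probe sets that can match several transcripts (-0.32). For ERα17p its sign turned after quantile normalisation (0.091) and with the arrays scaled to equal SD (0.063).

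ICAM1 differed the most of the 10 genes in all 3 comparisons. It encodes the intercellular adhesion molecule that binds leukocyte integrins, and is a standard readout of NF-κB activity. Its probe set 202637_s_at was at -2.17 on the vehicle array, 0.73 with estradiol and 0.058 with ERα17p. The second, 202638_s_at, was at -1.82, 0.95 and 0.076, and the third, 215485_s_at, was at -0.41, 0.81 and 0.56. All 3 put vehicle lowest, ERα17p in the middle and estradiol highest. The gene was 2.77 higher for estradiol (6.81-fold) and 1.90 higher for ERα17p (3.72-fold), with 27 and 100 of the 19775 genes at least as high. The smallest of the probe set differences were 1.22 and 0.97. After quantile normalisation the difference was 2.27 for estradiol and 1.17 for ERα17p.

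TRAF1, an adaptor of tumour necrosis factor receptors that NF-κB induces, was little above vehicle. In the same order of arrays, its probe set 205599_at was at -0.33, 0.10 and 0.11, and 235116_at was at -0.054, 0.33 and -0.26. The difference was 0.41 for estradiol (1.33-fold), with its probe sets at 0.39 and 0.44. For ERα17p it was 0.12, and the probe sets went opposite ways, at -0.20 and 0.45.

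**Figure D2:**
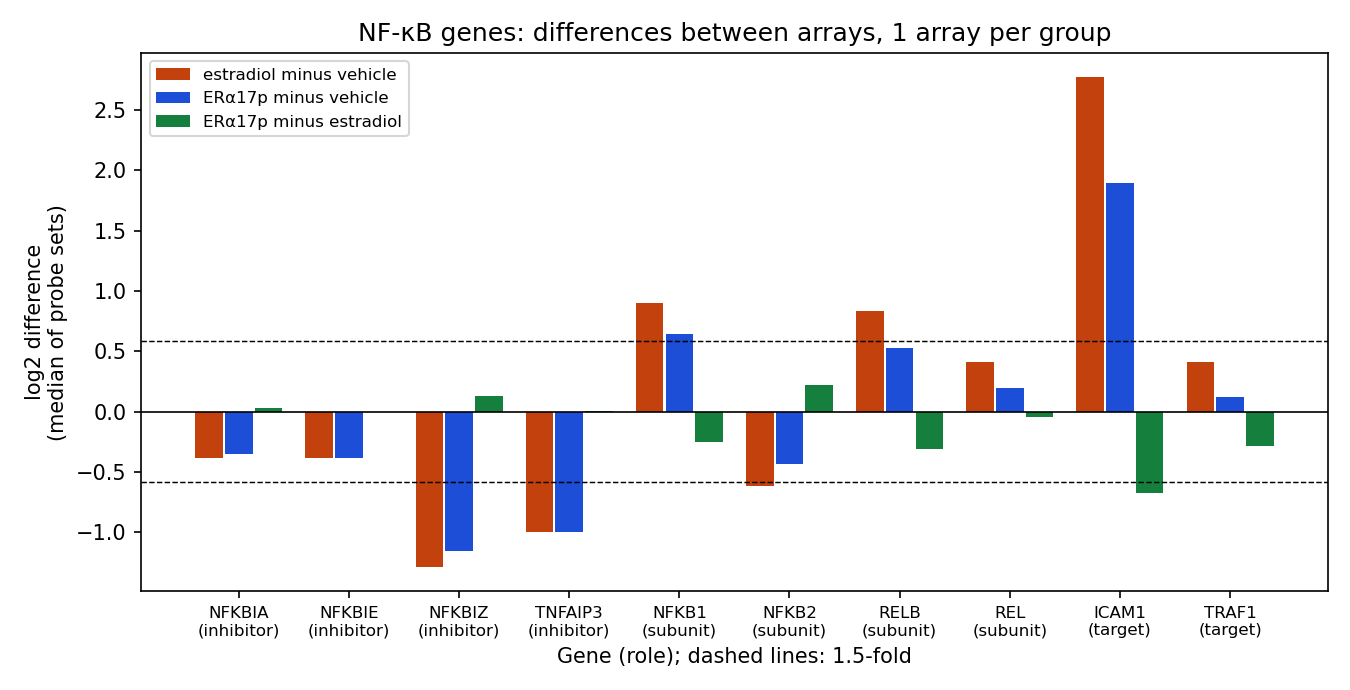
Log2 differences between arrays (median of each gene's probe sets, 1 array per group) for the 10 genes, with their roles and dashed lines at 1.5-fold. ICAM1 stands highest in both comparisons with vehicle, at 2.77 and 1.90, and NFKBIZ lowest, at -1.29 and -1.16.

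Set directly against each other, which leaves out the vehicle array, the peptide and the hormone differed by at least 1.5-fold in ICAM1 alone of the 10 genes. ICAM1 was lower with ERα17p, at -0.68 (1.60-fold lower), against 2.04% of all genes called lower and 1.29% called higher. Its probe sets were at -0.68, -0.87 and -0.25, and 227 of the 19775 genes were at least as low. None of the 10 genes differed by 2-fold here, against 0.212% of all genes lower and 0.0354% higher. The median probe set differences of the others that lay above vehicle were also below 0: RELB at -0.31, TRAF1 at -0.29, NFKB1 at -0.26 and REL at -0.044. These last medians are within 1.24-fold, and 52.9% of all genes were below 0 in this comparison. The probe sets of TRAF1 disagreed, at 0.0096 and -0.59, and those of REL ran from -0.35 to 0.44. For REL the median of the array values went the other way, at 0.11 with estradiol and 0.16 with ERα17p. Without probe sets that can match several transcripts, the sign turned for REL (0.0020) and for NFKBIA (-0.077).

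The gene medians of the 4 inhibitors differed by at most 0.13 between the treated arrays. TNFAIP3 differed by 0.0030, NFKBIE by -0.00038, NFKBIA by 0.031 and NFKBIZ by 0.13. The small value for NFKBIZ hides probe sets at 0.60 and -0.35, and that of NFKB2 (0.22) probe sets from -0.11 to 0.61. The median over the 10 genes was -0.022, beside -0.015 over all genes, and the median size without sign was 0.17, beside 0.14. ACTB, whose 3' minus 5' value bears on RNA integrity, was at 0.11 on the vehicle array, -0.27 with estradiol and 0.31 with ERα17p. GAPDH, a second such control, was closer across the arrays, at 0.13, 0.056 and 0.15. Each probe set has its own reference level, so these values can be compared only between arrays. The part of RNA integrity in these differences was not tested.

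**Figure D3:**
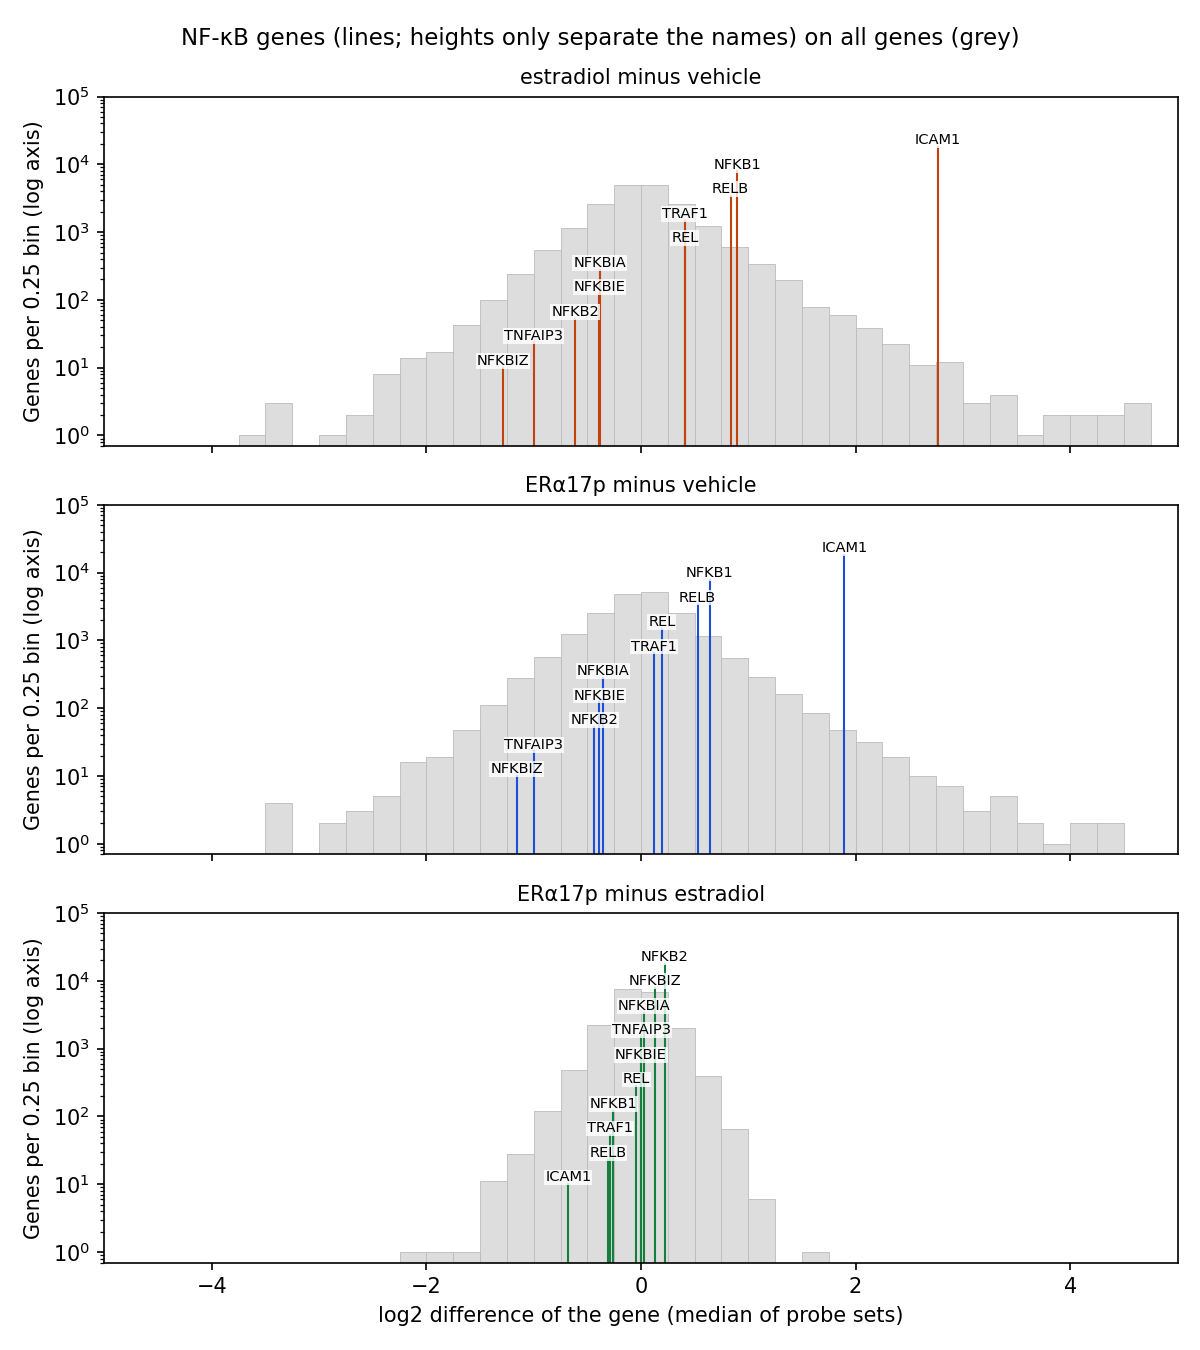
Histograms of the log2 difference of all 19775 genes (grey, bins of 0.25, log axis of counts) in the 3 comparisons, with a line at each of the 10 genes whose height only separates the names. In both comparisons with vehicle ICAM1 lies in the right tail and NFKBIZ and TNFAIP3 in the left, and between the treated arrays the 10 genes lie between -0.68 and 0.22.

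Upstream, several interleukin-1 and Toll-like receptor genes lay higher than vehicle on the treated arrays. Of 14 receptors measured, 5 were at least 1.5-fold higher and 1 lower for estradiol, and 4 higher and 0 lower for ERα17p, with medians of 0.23 and 0.18. Of all genes, 10.6% were higher and 8.42% lower for estradiol and 9.56% and 8.82% for ERα17p. These shares stand beside the counts of every list that follows. The lists too were chosen with earlier results of these data known, so their counts do not measure an excess over the shares. IL1RAP and IL1R1, which form the interleukin-1 receptor, were 2.18 and 1.53 higher for estradiol and 2.24 and 1.33 higher for ERα17p. The 2 probe sets of IL1R1 lay far apart, at 0.26 and 2.80 for estradiol and 0.27 and 2.39 for ERα17p. TLR2, a sensor of bacterial lipoproteins, was 1.37 and 1.35 higher, and TLR4, the sensor of lipopolysaccharide, 1.36 and 1.43. TLR3, a sensor of double-stranded RNA, was 1.71 higher for estradiol and 0.31 for ERα17p, and directly it was lower with the peptide, at -0.60. Its 3 probe sets ran from -0.23 to 1.71 for estradiol, from -0.18 to 1.12 for ERα17p and from -1.40 to 0.053 directly. Others of these families did not reach 1.5-fold: TLR1 was at 0.49 and 0.17, TLR6 at -0.40 and -0.22, and IL1RL1 at -0.23 and 0.0056. TNFRSF1B, a receptor of tumour necrosis factor, was at -0.69 and -0.37.

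Among 14 adaptors and signalling kinases, 2 were higher and 0 lower in each comparison with vehicle (medians 0.21 and 0.098). The paracaspase gene MALT1 was 1.12 and 1.57 higher for estradiol and ERα17p, and MYD88, the adaptor of interleukin-1 and Toll-like receptors, 0.78 and 0.70. BCL10, the partner of MALT1, was at 0.49 and -0.19, and TRAF3, a brake on the non-canonical pathway, at 0.34 and 0.43. RIPK1, TRAF2, IRAK4 and BIRC3 were not analysed here.

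The 11 IKK and related kinases with their TAB partners had 2 higher and 1 lower in each comparison with vehicle (medians 0.14 and 0.048). TBK1, a kinase related to IKK, was 1.05 and 1.22 higher for estradiol and ERα17p, and MAP3K7, which activates the IKK complex, 0.70 and 0.63 higher. The 4 probe sets of MAP3K7 disagreed in sign, from -0.54 to 1.80 for estradiol and from -0.39 to 1.55 for ERα17p. TAB3, a partner of MAP3K7, was at 0.48 and 0.55, with its 4 probe sets from -0.83 to 2.20 for estradiol. MAP3K8, a kinase held by the NFKB1 precursor, was lower at -0.89 and -0.86. The median for ERα17p turned to -0.021 with arrays scaled to equal SD. Without probe sets that can match several transcripts the medians were -0.011 for estradiol and -0.19 for ERα17p.

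Other subunits and regulators of the factors had a median size of difference of 0.52 for estradiol and 0.25 for ERα17p. Over all genes it was 0.25 in both comparisons. RELA itself was at 0.080 for estradiol and -0.062 for ERα17p. Its 2 probe sets went opposite ways, at -0.21 and 0.37 for estradiol and -0.34 and 0.21 for ERα17p. NKAP, an activator of NF-κB, was 1.62 and 1.49 higher, and NKRF, a repressor, 0.62 and 0.75 higher, so that 2 of 5 were at least 1.5-fold higher and 0 lower in both comparisons. The inhibitors NFKBID and NFKBIB were at -0.52 and -0.24 for estradiol and -0.25 and -0.079 for ERα17p.

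Ubiquitin enzymes and TNFAIP3 partners had 4 of 16 higher and 1 lower for estradiol and 3 higher and 1 lower for ERα17p (medians 0.082 and -0.016). The second median was 0.019 with the mean of probe sets. TNIP1, which binds TNFAIP3 and restrains NF-κB, was the lower gene, at -0.62 and -0.73, although its 2 probe sets were at -1.29 and 0.056 for estradiol. RNF11, part of the TNFAIP3 complex, was 1.25 and 1.29 higher, and TAX1BP1, also of that complex, was at 0.61 and 0.41. CUL1 and FBXW11, parts of the ligase that marks IκB for destruction, were 0.95 and 0.63 higher for estradiol and 0.78 and 0.70 higher for ERα17p.

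Further targets of NF-κB spread in both directions, as the 10 genes did. Of 23 measured, 8 were at least 1.5-fold higher and 2 lower for estradiol, and 7 higher and 2 lower for ERα17p (medians 0.16 and 0.15). VCAM1, an adhesion molecule like ICAM1, was 2.04 and 2.43 higher, the death ligand gene TNFSF10 2.76 and 3.06, and PTGS2, the inducible cyclooxygenase, 2.64 and 2.75. The mitochondrial superoxide dismutase SOD2 was lower at -1.80 and -2.42, and the stress gene GADD45B at -1.14 and -1.28. Between the treated arrays SOD2 was at -0.62, and VCAM1 was at 0.39, where ICAM1 was at -0.68.

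**Figure D4:**
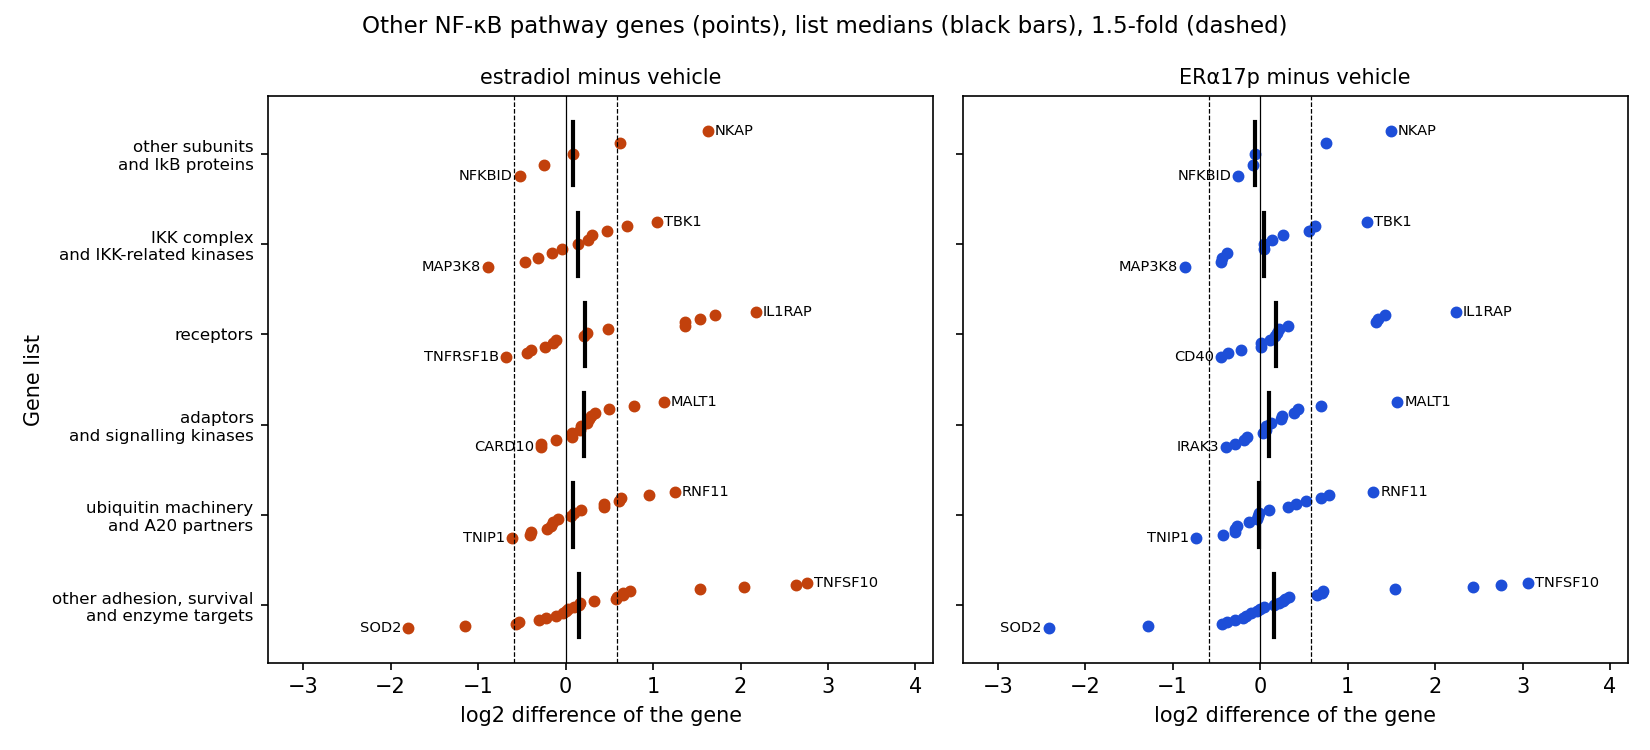
Log2 differences from vehicle of 83 other NF-κB pathway genes (points) in 6 lists, for estradiol on the left and ERα17p on the right, with black bars at the list medians and dashed lines at 1.5-fold. The list medians lie between -0.062 and 0.23, and single genes reach -2.42 (SOD2) and 3.06 (TNFSF10).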

How the data were processed

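RNA of MDA-MB-231 cells was measured on 3 Affymetrix HG-U133 Plus 2 arrays, 1 each for vehicle, estradiol and ERα17p. Per the submitters' processing notes the authors used RMA (background correction, quantile normalisation and summary into probe sets), of unstated version. The deposited values were read as log2, the scale RMA gives, although the sources used here do not name the log base. Every array had a median of 0, and between 7.08% and 8.54% of its values were exactly 0, so probe sets had been centred by a step that no source states.

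Symbols came from the platform annotation: of 54675 probe sets 41097 had 1 symbol, 1801 had several and 11777 were unnamed, and only those with 1 were used. All 10 genes matched RefSeq (GRCh38.p14) by Entrez identifier. For each probe set the log2 difference between 2 arrays was taken, and a gene's value is the median of its probe sets' differences. With 1 array per group no p-value exists, and precision is limited by that number. A gene was counted at a difference of at least 1.5-fold. Counts and medians were set beside those of all 19775 genes. All 10 genes were described. Of each other list, up to 4 genes with the largest absolute difference for estradiol were named, with any opposite gene past 1.5-fold. RELA, TLR1, TLR4, TLR6, IL1RL1 and TAX1BP1 were named outside this rule after their values were seen. The genes and lists were chosen with earlier results of these data known. Scripts ran in Python 3.11.15 with pandas 2.3.3 and were tested on simulated data. The alternatives were quantile normalisation of the deposited values, scaling arrays to equal SD, the mean of probe sets, leaving out probe sets named _s_at, _x_at or _a_at (which can match several transcripts), the reference level in place of vehicle, and a 2-fold limit.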

Additional observations from a re-analysis of the deposited data

How the results depend on the processing

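With 1 array per group, these values have no replicate check, and depth and signal over background are unknown. Quantile normalisation left 1 gene lower for estradiol in place of 3, and 1 higher and 1 lower for ERα17p in place of 2 and 2, with an ERα17p median of 0.084 in place of -0.12. Scaling to equal SD gave the same counts and an ERα17p median of 0.048. Of all genes, quantile normalisation called 9.73% higher and 6.27% lower for estradiol, and 8.48% and 7.53% for ERα17p. Scaling to equal SD called 9.29% and 6.58% for estradiol, and 8.3% and 7.79% for ERα17p. The reference level in place of vehicle left 1 gene higher and 0 lower for estradiol (median 0.13), and 0 higher and 0 lower for ERα17p (median 0.065). Calls also fell over all genes with that reference level, to 1.28% higher and 0.516% lower for estradiol, and 0.496% and 0.632% for ERα17p. Under it, 4 of the 10 genes lost their sign for estradiol (TNFAIP3 at 0.15, NFKB2 at 0.015, NFKBIA at 0.024 and NFKBIE at exactly 0) and 5 for ERα17p (TNFAIP3 at 0.15, NFKBIZ at 0.0038, NFKB2 at 0.24, NFKBIA at 0.055 and TRAF1 at -0.071). Which arrays made that reference is not known, and it may include the arrays compared. Leaving out probe sets that can match several transcripts removed ICAM1, NFKBIZ and TNFAIP3 altogether. The 7 genes left had 0 lower for estradiol (median 0.16), 1 higher and 0 lower for ERα17p (median 0.12), and 0 lower between the treated arrays. Over the 16790 genes that kept a probe set, 8.52% were lower for estradiol, and 9.34% higher and 8.84% lower for ERα17p. Between the treated arrays 2.44% of them were lower. With a 2-fold limit 1 gene was higher for estradiol, 1 higher and 1 lower for ERα17p, and 0 lower between the treated arrays. The shares of all genes at that limit are given in the Results. The mean of probe sets kept the sign of all 10 genes in the 3 comparisons. No probe set with several symbols names any of the 10 genes, so that alternative gave no value. The causes of these changes were not tested. No paired analysis was possible because each group has 1 array.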

Other observations

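BCL3, a nuclear IκB that acts with NFKB1 and NFKB2 products, was left out of the lists because its probe sets are also paired with the microRNA gene MIR8085. These probe sets went opposite ways. From vehicle to estradiol to ERα17p, 204907_s_at was at 0.40, 0.033 and -0.13, a difference from vehicle of -0.36 and -0.53. The other, 204908_s_at, was at -0.42, 0.16 and 0.032, a difference of 0.58 and 0.45. Between the treated arrays both were slightly lower with ERα17p, at -0.16 and -0.13.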
